A study of Mus musculus with 12 samples.

Results

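The antiviral interferon-stimulated genes described here are 36 listed genes, and all 36 were found among the 19505 named genes of a mouse Affymetrix array, each with 1 probe set. RNA came from RAW 264.7 cells, a mouse macrophage-like line, and each of the 4 groups held 3 arrays. Every group received lipopolysaccharide (LPS), a bacterial cell wall component that triggers interferon production, at 500 ng/mL, and was incubated for 6 h. The first group had LPS alone, the second TsSP at 50 µg/mL, the third the plant fibre inulin at 500 µg/mL, and the fourth inulin and TsSP together at these concentrations. TsSP is named in the labels only by these letters, and the design text speaks of helminth products. No array of cells without LPS was analysed here, so all values compare stimulated cells with stimulated cells. Whether the 3 arrays of a group stand for separate cultures is not stated in the labels. The p-values then rest on differences between the arrays at hand, which may be technical.

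Type I interferon, of which interferon beta (Ifnb1) is the form that macrophages release early after LPS, binds a receptor at the cell surface. The receptor's kinases act on STAT proteins, which join IRF9 and bind the interferon-stimulated response element (ISRE) in front of many genes. The products of these genes sense foreign nucleic acid, halt translation of viral RNA, cut RNA, tag proteins with ISG15 or ubiquitin, and feed back on the pathway. In macrophages LPS starts this programme through TLR4 and the adaptor TRIF.

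The ISRE core was searched as GAAANNGAA on both strands, where N is any base, in the RefSeq promoter windows of build GRCm38.p6, which are 300 bases long and surround the annotated start. A window was present for 25 of the 36 genes, and 13 of these (52.0%) held the core, against 9.76% of all 27025 genes of the table and 8.89% of the 7434 with a signal above background. In Ddx58, Samd9l and Eif2ak2 the core was found only after the start. With a further A required after the core, 12 of the 25 (48.0%) matched, against 3.99% of all genes. The stretches below lie in front of starts and are shown because they cover genes that fell strongly and genes that fell weakly. Capitals mark the core or its reverse complement, overlapping matches run together, and each stretch reads 5′ to 3′ on the gene's own strand.
Ifit1, chr19:34640760-34640833, plus strand: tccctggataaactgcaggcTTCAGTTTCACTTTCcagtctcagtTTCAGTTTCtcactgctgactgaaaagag
Ifit3, chr19:34583354-34583455, plus strand: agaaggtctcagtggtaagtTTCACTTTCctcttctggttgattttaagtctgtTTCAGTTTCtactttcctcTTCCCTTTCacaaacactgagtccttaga
Rsad2, chr12:26456543-26456591, minus strand: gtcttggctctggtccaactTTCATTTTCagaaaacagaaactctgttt
Isg15, chr4:156200856-156200916, minus strand: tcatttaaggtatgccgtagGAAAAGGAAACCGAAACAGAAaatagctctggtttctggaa
Oas3, chr5:120777700-120777754, minus strand: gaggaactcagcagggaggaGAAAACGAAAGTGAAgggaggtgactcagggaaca
Ifih1, chr2:62646339-62646387, minus strand: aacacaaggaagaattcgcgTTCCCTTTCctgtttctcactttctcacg

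These stretches lie 129 to 56 bases before the start in Ifit1, 175 to 74 in Ifit3, 139 to 91 in Rsad2, 98 to 38 in Isg15, 95 to 41 in Oas3 and 132 to 84 in Ifih1. Ifit1, Ifit3 and Isg15 each held 3 matches in their windows, and Oas3 and Ifih1 held 2. One match of Ifih1 lay after the start and is not in its stretch. A match is a description of letters and not a measured binding site.

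Signals are the deposited log2 values. Array medians ran from 5.16 to 5.30, the brightest background probe from 6.16 to 6.28, and arrays of a group correlated across genes at 0.993 to 0.995. Of the 36 genes, 35 lay above the background probes on all 12 arrays, and Ifnb1 lay below them in all 4 groups. All 10 measured genes of a macrophage marker list were above background on every array, while none of 8 T and B cell markers and none of 7 neutrophil and mast cell markers was on any, and 6 of 7 fibroblast and epithelial markers were on none. The summed macrophage markers were between 19.32 and 19.42 (log2) on the LPS arrays and between 19.50 and 19.54 on the TsSP arrays, with the receptor gene Adgre1 lower (log2 change -1.05) and Itgam and Lyz2 higher (0.74 and 0.44, limma). Of 9 measured markers of plasmacytoid dendritic cells, which are strong interferon producers, 4 were above background on all arrays, and Siglech, Ly6d, Pacsin1 and Klk1 were above it on none. That list, which shares Bst2 with the antiviral genes, summed to 16.28 to 16.50 with LPS and 15.97 to 16.05 with TsSP. The part of these differences in the results below was not tested. In bulk RNA, fewer responding cells and less RNA per cell cannot be told apart.

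With TsSP, antiviral transcripts fell as a body. Against LPS alone, 32 of the 36 genes were lower and 0 higher, by a limma model over all 12 arrays with Benjamini-Hochberg adjustment over all 19505 genes at a threshold of 0.05. The background share called lower in this comparison was 7.08% of all genes tested and 13.3% of the 9022 genes above background. The 36 genes were chosen with earlier results of these data known. Their excess over these shares, here and in the later comparisons, is thus a description and not independent support. The median log2 change of the 36 was -0.67, against 0.02 for all genes and 0.11 for genes above background. On single arrays, all 3 TsSP arrays lay below all 3 LPS arrays for 36 of 36 genes, against 13.6% of all genes.

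Strong falls, which means at least 2-fold (log2 change -1 or below) and past the test, were found in 7 genes, and 2.29% of all genes met the same limit. These were Ifit2, Ifit1, Ifit3, Mx1, Rsad2, Dtx3l and Cmpk2. Another 25 genes passed the test with a fitted log2 change above -1 and are called weakly falling, although Ifnb1 is among them and its fall cannot be sized. The 4 genes Isg20, Eif2ak2, Sp100 and Oasl2 did not pass. The limit cuts a continuous range, since Cmpk2 just inside it changed by -1.15 and Parp14 just outside it by -0.98. The number not past the test was 7 without LPS replicate 2, 9 without LPS replicate 3, and 8, 7 and 8 without TsSP replicates 1, 2 and 3. It was 10 when only the 6 arrays compared were fitted.

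Interferon beta itself could not be sized. Its probe set read 4.08, 4.85 and 4.77 with LPS alone, 3.80, 3.47 and 3.67 with TsSP, 4.65, 5.07 and 5.08 with inulin, and 4.00, 3.57 and 3.87 with both. The TsSP values are lower than the LPS values without overlap and the gene passed the test (adjusted p = 0.0105), but with all groups below background no fold is given. None of the 15 other measured interferon genes, interferon gamma among them, lay above background on all arrays of any group. Of these, Ifna5 passed the test as lower with TsSP (limma adjusted p = 0.0199). It was above background on only 1 LPS array, so no fold is given. Its call was lost without LPS replicate 1 (adjusted p = 0.0748) or TsSP replicates 2 or 3 (0.0841 and 0.0718). It was also lost with a mean-variance trend (0.0513) or with only the compared groups fitted (0.0803).

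All 5 sensors of foreign nucleic acid fell, with a median log2 change of -0.59. Ifih1 encodes MDA5, which binds long viral RNA. It read 16.41, 16.52 and 16.51 with LPS and 15.59, 15.58 and 15.45 with TsSP, a 1.92-fold fall to 52.2% of the LPS level (95% confidence interval 44.1 to 61.8, adjusted p = 0.000119). Ddx58, which encodes RIG-I, the sensor of short RNA with a triphosphate end, read 15.63, 15.82 and 15.91 with LPS and 15.21, 15.11 and 15.06 with TsSP. That is a 1.58-fold fall (log2 change -0.66, SE 0.12, adjusted p = 0.00183). Groups overlapped in neither gene.

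Dhx58 encodes LGP2, the third member of this helicase family, which lacks the signalling domain of the others. Its values were 14.74, 14.81 and 14.83 with LPS and 14.48, 14.45 and 14.21 with TsSP, a change of -0.41 (SE 0.13, adjusted p = 0.0426). This call was lost without any LPS replicate (adjusted p = 0.0657, 0.0972 and 0.109 without replicates 1, 2 and 3) or any TsSP replicate (0.0579, 0.0725 and 0.162). It was also lost without inulin replicate 2 (0.0568) or replicates 1 or 3 of inulin with TsSP (0.056 and 0.0548). The Z-DNA and Z-RNA sensor gene Zbp1 changed by -0.59 (adjusted p = 0.00823) and the DNA sensor gene Ifi204 by -0.56 (adjusted p = 0.00712). Ifi204 belongs to a family of similar genes, and whether its probe set also reads relatives was not tested.

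Genes whose products block translation, replication or release of virus held the deepest falls, with 9 of 11 lower and a median of -1.15. The IFIT proteins bind viral RNA that lacks the host's cap methylation or, in the case of Ifit2, act on translation and cell death. Ifit2 read 14.84, 14.49 and 14.70 with LPS and 12.98, 12.43 and 12.86 with TsSP, so the highest TsSP array was well under the lowest LPS array. The fall was 3.78-fold, to 26.5% of the LPS level (95% confidence interval 21 to 33.3, adjusted p = 5.54e-06).

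Ifit1 read 16.19, 16.19 and 16.12 with LPS and 14.32, 14.46 and 14.28 with TsSP, a 3.51-fold fall (log2 change -1.81, SE 0.11, adjusted p = 1.04e-06). Ifit3, of the same family, read 16.85, 16.84 and 16.67 with LPS and 15.07, 15 and 14.95 with TsSP. Its fall was 3.44-fold with the smallest adjusted p of the 36 in this comparison (8.92e-07). Ifit1 and Ifit3 hold 3 ISRE core matches each in the stretches shown, while no core was found in the 2 windows of Ifit2. Ifit3 has a close copy beside it, Ifit3b, and whether the probe set reads both was not tested.

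Mx1 and Mx2 encode dynamin-like GTPases that trap viral nucleoprotein, although RefSeq lists both as transcribed pseudogenes in the reference strain. Mx1 read 15.80, 15.58 and 15.68 with LPS and 14.12, 14.13 and 13.96 with TsSP, a 3.06-fold fall to 32.7% (95% confidence interval 27.2 to 39.3, adjusted p = 3.66e-06). Mx2 read 15.75, 15.62 and 15.65 with LPS and 14.73, 14.84 and 14.79 with TsSP, a 1.85-fold fall (adjusted p = 0.000107). Both fell without overlap, Mx2 by the smaller amount.

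Rsad2 encodes viperin, which makes a chain-terminating nucleotide from CTP, and its neighbour Cmpk2 encodes a mitochondrial nucleotide kinase. Rsad2 read 16.86, 16.68 and 16.80 with LPS and 15.46, 15.43 and 15.36 with TsSP, a 2.56-fold fall (log2 change -1.36, SE 0.11, adjusted p = 6.49e-06). Cmpk2 read 17.25, 17.11 and 17.30 with LPS and 16.05, 16.10 and 16.07 with TsSP, a 2.21-fold fall (log2 change -1.15, SE 0.11, adjusted p = 3.11e-05). The TsSP arrays of Cmpk2 had an SD of 0.026, so the fall was much larger than the spread.

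Among the weaker falls in this group, Samd9l, an inhibitor of translation, changed by -0.75 (adjusted p = 0.000894), and Bst2, which encodes tetherin, the tether that holds budding virus at the membrane, by -0.58 (adjusted p = 0.0057). The 2 members that did not pass were Isg20 and Eif2ak2. Isg20, an RNA exonuclease, read 17.10, 17.12 and 17.18 with LPS and 16.89, 16.80 and 16.82 with TsSP (log2 change -0.29, 95% confidence interval -0.51 to -0.08, adjusted p = 0.0641). It passed after quantile normalization (adjusted p = 0.0237) or centring of each array on its median (0.0366), and when genes below background were left out (0.00781). Eif2ak2 encodes PKR, the kinase that stops translation when it binds double-stranded RNA. Its values were 15.22, 15.36 and 15.41 with LPS and 15.17, 15.10 and 15.07 with TsSP (log2 change -0.22, 95% confidence interval -0.45 to 0.02, adjusted p = 0.224). With a mean-variance trend in the model, Eif2ak2 passed as lower (adjusted p = 0.0279), as did Isg20 (8.86e-05).

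The oligoadenylate synthetases make the signal that activates RNase L. Of the 5 family members, 4 fell, with a median of -0.51. Oasl1, which binds RNA but makes no oligoadenylate and is known to repress translation of Irf7, read 14.80, 14.75 and 14.84 with LPS and 14.17, 14.24 and 14.04 with TsSP (1.57-fold, adjusted p = 0.00236). Oasl2, the next gene on chromosome 5, read 15.49, 15.50 and 15.51 with LPS and 15.49, 15.33 and 15.35 with TsSP. Its highest TsSP array reached the LPS values to the second decimal, and its change of -0.11 (95% confidence interval -0.37 to 0.15, adjusted p = 0.605) was the smallest of the 36.

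Oas1a changed by -0.57 (adjusted p = 0.00622), with LPS arrays at 13.76, 13.69 and 13.64 and TsSP arrays at 13.11, 13.31 and 12.94. Several Oas1 copies lie beside it, and whether its probe set reads them was not tested. Oas3 changed by -0.51 (adjusted p = 0.021), from 13.38, 13.26 and 13.61 to 12.96, 12.98 and 12.78. Its call was lost without LPS replicate 3 (adjusted p = 0.0826) or TsSP replicate 3 (0.0838). Oas2, the neighbour of Oas3, changed by -0.40, from 13.58, 13.59 and 13.51 to 13.24, 13.09 and 13.16. With an adjusted p of 0.0482 it was the call nearest the threshold, and it was kept without replicate 1 of inulin with TsSP and lost without any other array. The adjusted p was then 0.101, 0.115 and 0.0826 without LPS replicates 1 to 3, 0.0745, 0.147 and 0.112 without TsSP replicates 1 to 3, 0.0663, 0.0634 and 0.0628 without inulin replicates 1 to 3, and 0.0546 and 0.0522 without replicates 2 and 3 of the combination.

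All 5 genes of the ISG15 and ubiquitin system fell, with a median of -0.92. Isg15, the ubiquitin-like protein that is joined to other proteins, read 14.26, 14.03 and 14.20 with LPS and 13.47, 13.45 and 13.49 with TsSP, a 1.62-fold fall (log2 change -0.69, SE 0.11, adjusted p = 0.000825). Usp18, the protease that removes ISG15 and also blocks the interferon receptor, read 17.34, 17.18 and 17.14 with LPS and 16.24, 16.26 and 16.32 with TsSP, a 1.93-fold fall (adjusted p = 8.1e-05). Herc6, the mouse ligase for ISG15, read 15.64, 15.70 and 15.66 with LPS and 14.75, 14.76 and 14.75 with TsSP, a 1.89-fold fall (adjusted p = 5.93e-05). Thus the modifier, its ligase and its protease were all lower, with no overlap of arrays in any of the 3.

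Dtx3l, a ubiquitin ligase that works as a complex with Parp9, read 14, 13.97 and 13.91 with LPS and 12.83, 12.52 and 12.50 with TsSP, a 2.54-fold fall to 39.4% (95% confidence interval 31.1 to 49.8, adjusted p = 9.47e-05). Trim30a, which restrains TLR signalling, changed by -0.42 (adjusted p = 0.0164). Its call was lost without LPS replicate 2 (adjusted p = 0.063), TsSP replicate 2 (0.0661) or TsSP replicate 3 (0.0506).

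The 3 ADP-ribosyltransferase genes were all lower, with a median of -0.91. Parp14 read 14.07, 14.18 and 14.40 with LPS and 13.31, 13.22 and 13.19 with TsSP, a 1.97-fold fall (adjusted p = 0.000738). Parp9, which reads ADP-ribose and pairs with Dtx3l, went from 13.52, 13.61 and 13.50 to 12.63, 12.50 and 12.77, a 1.88-fold fall (adjusted p = 0.000401). Parp12, which acts on translation, went from 16.63, 16.65 and 16.68 to 16.12, 16.32 and 16.31, a 1.32-fold fall (adjusted p = 0.0194). The call of Parp12 was lost without LPS replicate 3 (adjusted p = 0.057) or TsSP replicate 1 (0.0818).

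Of the 6 genes of signalling and of nuclear or other roles, 5 fell, with a median of -0.51. Stat2, the signal transducer through which type I interferon reaches the ISRE, read 15.08, 15.06 and 15.19 with LPS and 14.51, 14.30 and 14.29 with TsSP, a 1.67-fold fall (adjusted p = 0.000512). Xaf1, a promoter of apoptosis, changed by -0.68 (adjusted p = 0.00157), the receptor-transporting gene Rtp4 by -0.55 (0.00332), Tor3a by -0.47 (0.00579) and Ifi35 by -0.47 (0.0222). The Ifi35 call was lost without LPS replicate 3 (adjusted p = 0.0866) or TsSP replicate 1 (0.0905). Sp100, a component of nuclear bodies, read 16.70, 16.61 and 16.70 with LPS and 16.42, 16.55 and 16.45 with TsSP, and did not pass (log2 change -0.19, 95% confidence interval -0.45 to 0.07, adjusted p = 0.335). With a mean-variance trend in the model it passed narrowly (adjusted p = 0.0493).

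The same agent was tested again on top of inulin, in 6 arrays whose values do not enter the difference from LPS alone, although the model takes its spread from all 12 arrays. Against inulin, the combination of inulin and TsSP had 33 of the 36 genes lower and 0 higher (median log2 change -0.77), where 7.99% of all genes and 15.4% of genes above background were lower. All 3 combination arrays were below all 3 inulin arrays for 35 of 36 genes, against 15.9% of all genes, and Oasl2 was the exception. All 7 strongly falling genes were lower again, with a median of -1.58. All 25 weakly falling genes were lower, with a median of -0.64 over the 24 above background, and of the 4 that had not passed, Isg20 was lower (log2 change -0.35, adjusted p = 0.0303). The classes overlapped here, since the weakly falling Parp14 (-1.17), Ifih1, Usp18 and Parp9 (-1.03 each) were beyond the 2-fold limit, and Parp14 changed by more than the strongly falling Cmpk2 (-1.13).

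Ifit2 read 14.65, 14.73 and 14.82 with inulin and 12.56, 12.51 and 12.56 with the combination, a 4.56-fold fall to 21.9% (95% confidence interval 17.4 to 27.6, adjusted p = 2.01e-06). Ifit3 went from 16.77, 16.77 and 16.80 to 14.93, 14.73 and 14.93, a 3.78-fold fall (adjusted p = 4.63e-07). Mx1 went from 15.70, 15.64 and 15.68 to 14.13, 14.25 and 13.92, a 2.98-fold fall (adjusted p = 4.26e-06). Oasl2 stood at 15.44, 15.49 and 15.58 with inulin and 15.22, 15.57 and 15.34 with the combination, where the groups overlapped (log2 change -0.13, 95% confidence interval -0.38 to 0.13, adjusted p = 0.563).

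Across the 36 genes, the change with TsSP alone and the change with TsSP on inulin had a Pearson correlation of 0.983 and a Spearman correlation of 0.957, over genes that share arrays and are not independent replicates. The changes lay within 0.2 of each other for 35 genes. Ifit2 was the exception, with -1.92 and -2.19.

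**Figure D1:**
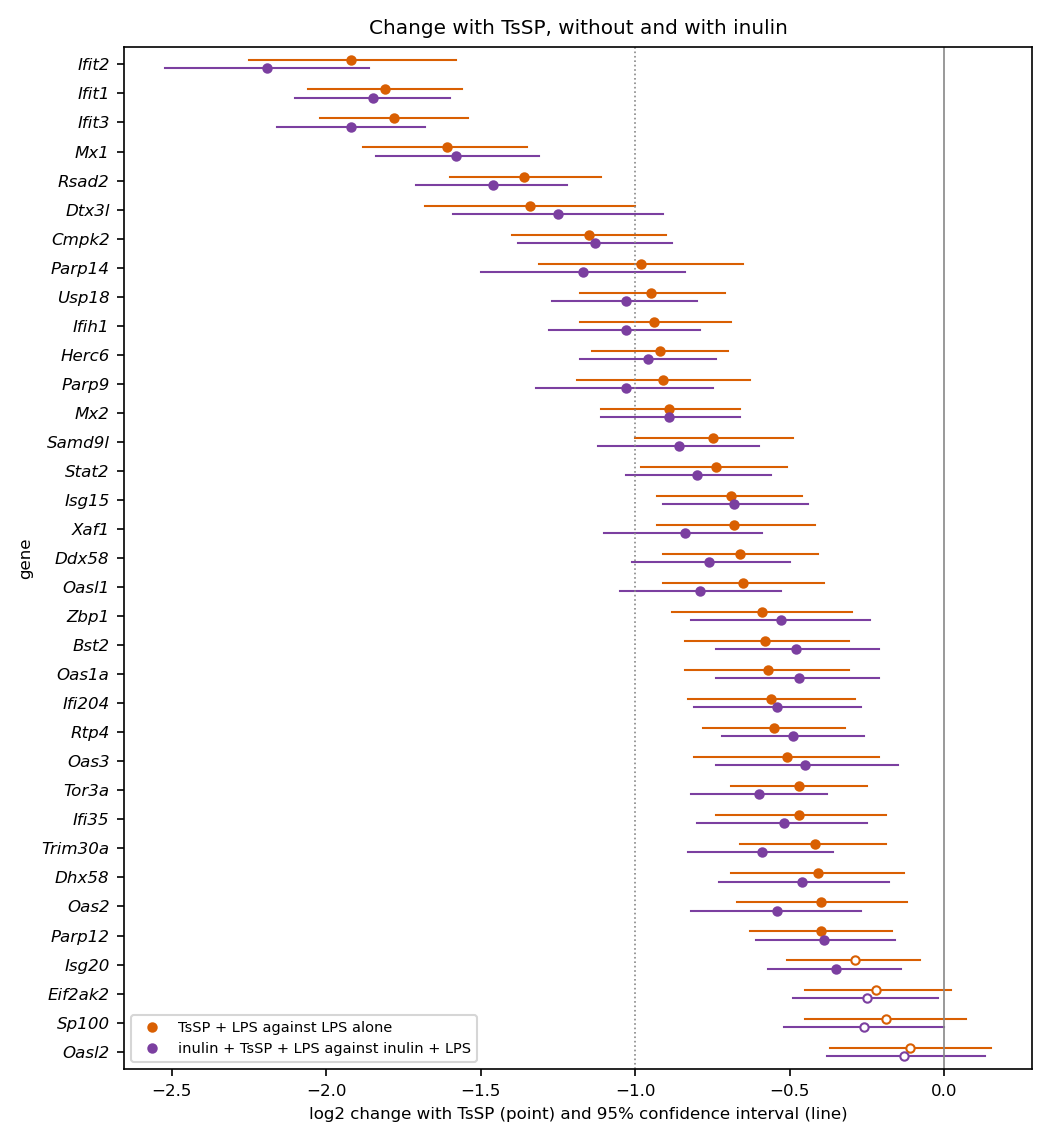
Log2 change with TsSP for the 35 genes above background, without inulin (orange) and with inulin (purple), as points with 95% confidence intervals from limma; filled points passed the test and the dotted line marks a 2-fold fall. The points run from Ifit2 at -1.92 and -2.19 to Oasl2 at -0.11 and -0.13, and the intervals of each gene overlap.

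Some calls of this second comparison were lost when a single array was left out. This need not mean that they rested on that array. The Oas3 change stayed at -0.45 without LPS replicate 1, which is outside the comparison, although the call was lost. Isg20 was lost without any inulin replicate (adjusted p = 0.0642, 0.073 and 0.0916 without replicates 1 to 3) or without combination replicates 2 or 3 (0.0771 and 0.0986). Oas3 (adjusted p = 0.0428) was kept without LPS replicates 2 or 3 and lost without any of the other 10 arrays, with an adjusted p from 0.0506 without LPS replicate 1 up to 0.148 without combination replicate 1. Parp12 was lost without inulin replicates 1, 2 or 3 (0.0631, 0.0704 and 0.0637) or combination replicates 2 or 3 (0.0802 and 0.0672). Dhx58 was lost without inulin replicates 1 or 2 (0.113 and 0.0543) or combination replicates 1 or 3 (0.0793 and 0.0947). Oas1a was lost without inulin replicates 1 or 2 (0.0607 and 0.0668) or combination replicate 1 (0.0727), and Bst2 without inulin replicate 1 (0.0698) or combination replicates 1 or 3 (0.0638 and 0.0577). Zbp1 was lost without inulin replicate 2 (0.0678) or combination replicate 1 (0.0703), and Ifi35 without combination replicate 3 (0.0557). The 7 strongly falling genes passed in both comparisons without any single array. Eif2ak2 and Sp100 did not pass on top of inulin (adjusted p = 0.152 and 0.18), but did with a mean-variance trend (0.00922 and 0.00637). Eif2ak2 also passed when genes below background were left out (0.0347).

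Inulin left the antiviral genes near their LPS level. Against LPS alone, 0 of the 36 genes passed (0% of all genes did), and 0 of the 36 had an unadjusted p under 0.05, against 1143 of all genes. Over the 35 genes above background, changes ran from -0.12 for Oas3 to 0.15, with 95% confidence limits between -0.42 and 0.42. Isg15 read 14.19, 14.27 and 14.35 with inulin, among LPS values of 14.03 to 14.26 or just above. For Ifit1 the inulin level was 101% of the LPS level (95% confidence interval 85.0 to 120). Inulin and LPS arrays overlapped for all genes but Isg20 and Ifi204, where the 3 inulin arrays were above the 3 LPS arrays. The share of all genes separated in that direction was not counted, so these 2 genes are not read as a result. In the other direction, 0 of the 36 genes were separated, against 3.66% of all genes.

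Adding inulin to TsSP likewise gave 0 calls among the 36 genes, where 0% of all genes were called. An unadjusted p under 0.05 was found in 0 of the 36 and in 971 of all genes. Over the 35 genes, changes ran from -0.22 (Ifit2) to 0.17 (Oas1a and Ifi204), with limits between -0.55 and 0.44. All 3 combination arrays lay below all 3 TsSP arrays for 3 of the 36 genes, against 5.86% of all genes. They lay above them for 2 of the 36, where the share of all genes was not counted. The interaction, which asks whether the change with TsSP differs with and without inulin, also had 0 calls among the 36 and 0% among all genes, and an unadjusted p under 0.05 in 0 of the 36 and 1089 of all genes. Its estimates over the 35 genes ran from -0.27 (Ifit2) to 0.10, with limits between -0.74 (Ifit2) and 0.57 (Dtx3l). The limits of single genes were narrower than this range, such as -0.32 to 0.32 for Mx2. With 3 arrays a group, an interaction inside a gene's own limits is not excluded for that gene.

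The combination against LPS alone, which shares the LPS arrays with the first comparison, had 32 genes lower and 0 higher (median -0.69), where 7.30% of all genes were lower. Ifi35 did not pass there (adjusted p = 0.0577), and Eif2ak2 did, at 14.90, 15.05 and 14.94 against 15.22, 15.36 and 15.41 (log2 change -0.37, adjusted p = 0.0378). Ifi35 did pass after quantile normalization (0.0495) or median centring (0.0335). It also passed when genes below background were left out (0.0122) and with a mean-variance trend (0.00128). That call of Eif2ak2 was kept without LPS replicate 1 or inulin replicate 3 and lost without any other array, with an adjusted p up to 0.116 without LPS replicate 3. The calls of Ifi204 (adjusted p = 0.0483) and Parp12 (0.0375) were kept without TsSP replicate 2 and TsSP replicate 1, respectively, and lost without any other array. Oas1a (0.0395) was kept without inulin replicate 3 or TsSP replicates 2 or 3 and lost without any other array. Dhx58, Ifnb1, Rtp4, Oas3 and Zbp1 were each lost without some single array of the groups compared.

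Related genes can be set side by side within arrays. In 7 pairs, chosen after their values had been seen, the change with TsSP of the first gene less that of the second was averaged over the arrays without and with inulin. These differences are a description with no test. The change of Oasl2 was less negative than that of Oasl1 by 0.60 on the log2 scale (0.54 without inulin and 0.66 with it). The difference was 0.71 for Mx2 and Mx1, 0.68 for Parp12 and Parp14, 0.55 for Dhx58 and Ifih1, 0.32 for Parp9 and Dtx3l, and 0.27 for Cmpk2 and Rsad2. It was 0.22 for Ifit1 and Ifit2, with 0.11 without inulin and 0.34 with it, and ranged from 0.11 to 0.29 when single arrays were left out or arrays were quantile normalized. The within-group SD of the difference between the 2 genes was 0.23 for Ifit1 and Ifit2 and 0.22 for Parp9 and Dtx3l. It was 0.073 to 0.2 for the other pairs.

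**Figure D2:**
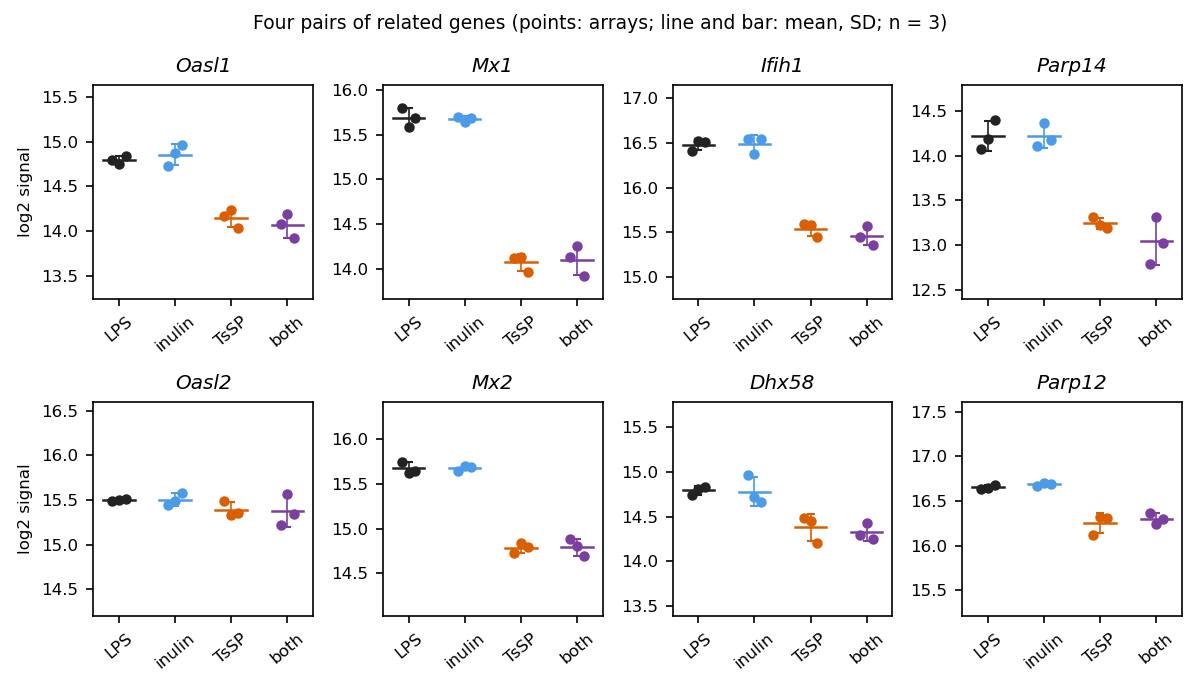
Log2 signal on each array for 4 pairs of related genes, with the first gene of a pair in the upper row and the second in the lower row, and with axes that span the same number of log2 units. Points are arrays, lines are means and bars are SD (n = 3); the group means of Oasl1, Mx1, Ifih1 and Parp14 differ more between arrays with and without TsSP than those of Oasl2, Mx2, Dhx58 and Parp12.

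On the chromosomes, 15 of the 36 genes had another member nearby, with at most 5 genes between, by the RefSeq gene order. Ifit2, Ifit3 and Ifit1 lie in a cluster on chromosome 19, and all 3 fell strongly. Rsad2 and Cmpk2 are neighbours on chromosome 12 and fell strongly as well. Parp9, Dtx3l and Parp14 follow each other on chromosome 16, with changes of -0.91, -1.34 and -0.98. Neighbours were not always alike, since Oasl1 and Oasl2 are adjacent on chromosome 5 and changed by -0.65 and -0.11.

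The ISRE core did not sort the genes by strength in these counts. It was found in 3 of 6 strongly falling genes with a window, 9 of 15 weakly falling genes and 1 of 4 genes not past the test. Strong falls without a match in the window were seen in Ifit2, Cmpk2 and Dtx3l. Eif2ak2, which did not pass, had 2 matches, both after the start. The STAT dimer element GAS, searched as TTCNNNGAA on both strands, was found in 6 of 25 genes (24%), against 9.55% of all genes, and overlapped an ISRE match only in Bst2.

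The counts of other genes of the pathway can be read against the shares of all genes, of which 7.08% were called lower and 11.0% higher with TsSP against LPS alone, or 13.3% and 21.6% of the genes above background. Of 22 measured genes of LPS sensing and interferon induction, 10 were lower and 4 higher in that comparison (median log2 change -0.29), so the share called higher was near the background share. Irf1, a transcription factor of interferon responses, fell 4.11-fold, from 14.14 ± 0.095 (SD, n = 3) to 12.10 ± 0.18 (limma adjusted p = 1.71e-06). Irf8, a factor of myeloid cells, rose 3.69-fold, from 9.79 ± 0.20 to 11.68 ± 0.11 (adjusted p = 2.89e-06). The RNA sensor genes Tlr3 and Tlr7 changed by -1.01 and -0.89, the DNA sensor gene Cgas by -0.82 and the ligase gene Trim25, which acts on RIG-I, by -0.81, all past the test. The other genes called lower were Irf5 (-0.94), the adaptor genes Ticam2 (-0.77) and Myd88 (-0.67), and Tank (-0.65) and Azi2 (-0.43), which act on the kinases that switch on interferon. The Ticam2 call was lost without LPS replicates 1 or 2 (adjusted p = 0.0848 and 0.0534) or TsSP replicates 2 or 3 (0.0949 and 0.0629). The other genes that rose were Mavs (0.63), Ly96 (0.56) and Sting1 (0.43), named here because few rose, and the Sting1 call was lost without TsSP replicate 2 (adjusted p = 0.0616). Of the 8 genes that did not pass, Tlr4, the adaptor gene Ticam1 and Irf3 had log2 differences of -0.04, -0.08 and -0.06 (adjusted p = 0.896, 0.792 and 0.827). The others were Ikbke (-0.31, adjusted p = 0.0547), Irf7 (-0.28, 0.238), Tbk1 (-0.26, 0.156), Tlr9 (-0.06, 0.884) and Cd14 (0.13, 0.479). With a mean-variance trend in the model, Ikbke, Irf7 and Tbk1 passed as lower (adjusted p = 0.000942, 0.0194 and 0.0318). Ikbke and Tbk1 also passed when genes below background were left out (0.00626 and 0.0386), and Ikbke after median centring (0.034). With TsSP added to inulin, 10 of the 22 genes were lower and 4 higher. Of the 9022 genes above background, 1392 were lower and 1533 higher in that comparison. There Irf7 passed as lower (log2 change -0.51, limma adjusted p = 0.032), and Myd88 did not pass (-0.40, 0.0802).

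Of 17 measured genes of the interferon receptor and its signalling, 4 were lower and 5 higher (median 0.01), to be read against the same background shares. The lower genes were the feedback inhibitor Socs1 (-1.80), the repressor Irf2 (-1.16), and the kinase genes Tyk2 (-0.72) and Jak2 (-0.45). The receptor gene Ifnar1 rose 1.94-fold, from 11.52 ± 0.13 to 12.47 ± 0.13 (SD, n = 3, limma adjusted p = 0.000434). The phosphatase gene Ptpn1 (0.66), the interferon gamma receptor gene Ifngr2 (0.50), Socs3 (0.37) and Stat3 (0.35) were higher. The Ifngr2 call was lost without TsSP replicate 2 (adjusted p = 0.0505), and that of Jak2 without LPS replicates 2 or 3 (0.0614 and 0.0917) or any TsSP replicate (0.0542, 0.059 and 0.1). Stat3 was lost without any LPS replicate (0.057, 0.0696 and 0.0913) or any TsSP replicate (0.0784, 0.0694 and 0.106). The Socs3 call was kept without replicates 1 or 2 of inulin with TsSP and lost without any other array, with an adjusted p up to 0.13 without TsSP replicate 2. With a replicate block the calls of Jak2 and Stat3 were lost (adjusted p = 0.0534 and 0.0647). After quantile normalization neither Socs3 nor Stat3 passed (adjusted p = 0.051 and 0.0514). With TsSP added to inulin, 6 of the 17 genes were lower and 5 higher. Irf9 (-0.48, limma adjusted p = 0.0323), Ptpn2 (-0.51, 0.0141) and Pias1 (-0.46, 0.029) passed as lower there. Ifnar2 (0.45, 0.00899) and Ifngr1 (0.86, 0.0161) passed as higher. Jak2 (-0.40, 0.0534), Ifngr2 (0.34, 0.0843) and Stat3 (0.19, 0.264) did not pass.

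Other interferon-stimulated genes, 51 measured and none of them among the 36, had 44 lower, 0 higher and a median of -0.73, against the same background of 13.3% lower and 21.6% higher. Cxcl10, a chemokine that draws T cells, fell 4.27-fold, from 17.78 ± 0.084 to 15.69 ± 0.043 (SD, n = 3, limma adjusted p = 2.03e-07). Trim21, an antibody receptor and ubiquitin ligase, fell 6.21-fold, from 12.29 ± 0.18 to 9.66 ± 0.11 (adjusted p = 9.26e-07). Slfn5, Slfn9 and Slfn8 of the Schlafen family changed by -2.43, -1.74 and -1.2, and the deubiquitinase gene Zup1 by -2.27. This list too was chosen with earlier results of these data known, so its counts are a description. Whether the 36 antiviral genes differ from this list was not tested.

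**Figure D3:**
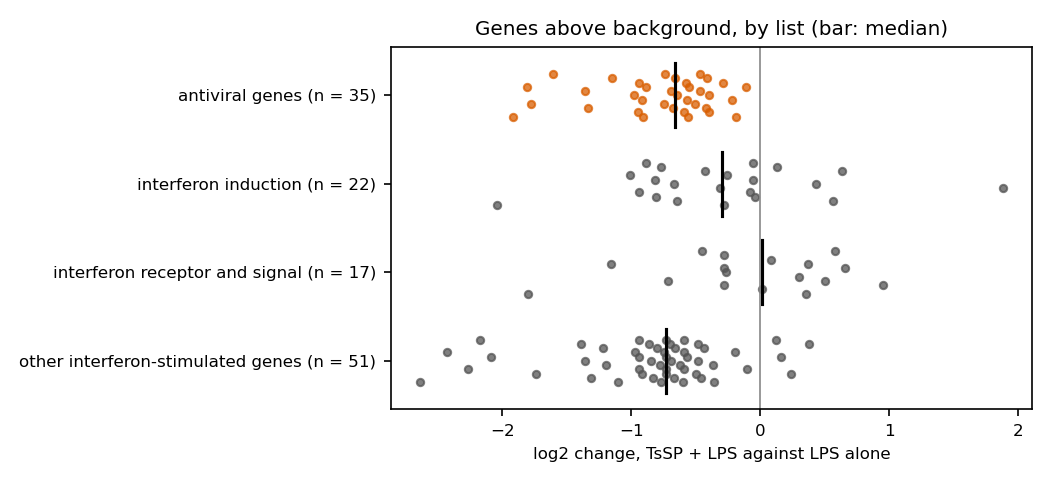
Log2 change with TsSP against LPS alone for genes above background, with each point a gene and the bar the median of its list. The antiviral genes and the other interferon-stimulated genes lie almost wholly below 0, while the induction and receptor lists hold genes on both sides, with Irf1 at -2.04 and Irf8 at 1.88.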

How the data were processed

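The authors deposited processed signals on a log2 scale, with 1 value for each probe set on each array. The base is inferred from the range of the values, and how they were normalized is not given in the sources used here. Values were used as deposited. Of 28846 probe sets, 19572 carry a gene symbol. The brightest by mean was kept for 55 genes with several, which left 19505 genes. A gene was above background in a group if it exceeded the brightest of 23 background probes on each array.

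A limma model with 4 group means (limma 3.58.1, R 4.3.3, 8 residual and 3.35 prior degrees of freedom) gave 6 contrasts. P-values are two-sided, Benjamini-Hochberg adjusted over 19505 genes. The code was tested on simulated data. Folds are 2 to the power of the log2 change. Motif searches and plots used Python 3.11.15 and matplotlib 3.10.9.

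The 36 genes and the lists were chosen with earlier results of these data known. All members are named or counted, and of each other list up to 6 genes by smallest p. Further genes of the induction and receptor lists were named after their values had been seen, as were the 7 gene pairs. The fit was repeated with quantile normalization, median centring, a mean-variance trend, the compared groups alone, a replicate block, genes above background, other rules for several probe sets, and without each array. Same-numbered arrays of different groups did not deviate together.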

Additional observations from a re-analysis of the deposited data

How the results depend on the processing

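No call reversed its direction under any setting run. Counts of genes lower ranged from 26 to 35 over the settings other than leaving out an array, and from 27 to 31 over the fits without an array, for TsSP against LPS alone (32 reported). They ranged from 23 to 34 and 25 to 30 for the combination against LPS alone (32), and from 28 to 35 and 27 to 33 for TsSP added to inulin (33). No setting gave a call for inulin against LPS alone, inulin added to TsSP or the interaction. Of 719 refits of single genes for TsSP against LPS alone, 676 kept the call, 37 lost it and 6 gained it. With a replicate block the counts were 30, 28 and 30. The block ended the calls of Dhx58 and Oas2 for TsSP against LPS alone, Isg20, Oas3 and Parp12 for TsSP added to inulin, and Eif2ak2, Ifi204, Oas1a and Parp12 for the combination. Among the listed genes outside the 36 it ended the calls of Jak2, Stat3 and Rnf114 for TsSP against LPS alone. Deviations of same-numbered arrays correlated at -0.098 to 0.119 (18 pairs of arrays), and those of other numbers at -0.138 to 0.127. No shared deviation of same-numbered arrays was thus seen. Whether they were cultured or run in matched sets is not stated in the labels and cannot be told from these values. The number of genes not past the test was 1 with a mean-variance trend, 10 with only the compared groups fitted, and between 5 and 9 without an array. With a limit of 1.5-fold, 21 genes fell strongly and 11 weakly, and with 3-fold 4 fell strongly. The cause of these moves was not tested, except that the limits define the classes. Quantile normalization and leaving out arrays were added for the pair differences after the data had been seen, and left each of the 7 differences above 0. The pairs had been chosen with their values known, so the sign itself is no support. Precision is limited by 3 arrays a group, and signals near background, such as Ifnb1, cannot be sized.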
